A study of Mus musculus with 12 samples.

Results

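The 10 naive pluripotency transcription factors Klf2, Klf4, Klf5, Esrrb, Tbx3, Zfp42, Tfcp2l1, Prdm14, Nr0b1 and Nr5a2 were followed across 12 expression arrays of E14 mouse ES cells. They were chosen by name, and 12 array probes map to these 10 genes, which are 10 of the 29844 genes tested. E14 is an established mouse ES cell line, and here it was grown without feeder cells on gelatin in serum plus LIF. Cells were transfected with esiRNAs, pools of short interfering RNAs cut from a longer double strand, and harvested 48 hr later for total RNA, which was labelled with Cy3 and read on one-colour Agilent arrays. The 6 groups, of 2 arrays each, were EGFP KD (the control, aimed at a gene these cells lack), Chd4 KD (the ATPase of the NuRD chromatin remodeling complex), Mbd3 KD and Mbd2 KD (alternative subunits of that complex), Tet1 KD (an enzyme that oxidizes methylated cytosine) and Dnmt1 KD (the maintenance DNA methyltransferase). All groups shared the cell line, the medium and the transfection, and a KD leaves part of the targeted mRNA. The study describes its arrays as biological duplicates, while the labels do not say whether the 2 arrays of a group came from separate cultures. The p-values measure the spread between these arrays.

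Naive pluripotency is the state of the inner cell mass of the mouse blastocyst, and ES cells keep it through a network of transcription factors that sustain each other. LIF acts through Stat3 on Klf4 and Tfcp2l1, Wnt signalling relieves Tcf7l1 repression of genes such as Esrrb, and Tbx3, Klf2, Klf5, Nr5a2, Nr0b1 and Prdm14 act alongside them on a core of Oct4 and Sox2. NuRD remodels nucleosomes and removes histone acetyl groups, and in ES cells it is known to dampen genes of this network and to be needed for exit from self-renewal. The comparison asked how the mRNAs of these factors stood after loss of each regulator.

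The targeted mRNAs were read on each array first, as the difference in log2 signal from the EGFP KD mean. Mbd3 was at -3.07 and -2.85 on the arrays labelled Mbd3 KD, Chd4 at -1.55 and -1.01 on those labelled Chd4 KD, and Dnmt1 at -1.64 and -2.35 on those labelled Dnmt1 KD. Tet1 (probe A_55_P2122997) was at -0.02 on Tet1 KD replicate 1, as labelled, and at -1.79 on Mbd2 KD replicate 1, as labelled. The mRNA of Mbd2 (probe A_66_P133043) was at -1.75 on the first of these and at -0.24 on the second. A second Tet1 probe (A_51_P512172) was at 0.23 and -1.18 on them. The brighter Mbd2 probe (A_55_P2036526) was at -0.20 and -0.08, and at -0.07 on Mbd2 KD replicate 2, where the other Mbd2 probe was at -1.77, so that it did not set Mbd2 KD apart. By both Tet1 probes and 1 of the 2 Mbd2 probes these arrays go against their labels, and the ranges and medians of the members in Tet1 KD and Mbd2 KD are also given without them. The arrays lay on 3 slides, and slide 3 had no EGFP KD array, only the second replicates of Chd4 KD, Mbd3 KD, Mbd2 KD and Dnmt1 KD. Of 7 ES cell markers, Pou5f1 (Oct4) and Dppa5a sat at the scanner ceiling on at least 11 arrays and Utf1 on 7, Sox2, Sall4 and Lin28a were well above background on all 12 with no saturation, and the single Nanog probe was between -4.86 and -3.86, where -4.86 is the floor set for all log2 signals. The mean log2 signal over 8 trophectoderm markers was -2.37 and -2.31 in EGFP KD and -1.86 and -1.83 in Chd4 KD, and over 6 of 7 fibroblast markers it ran from -1.35 to -1.16 in EGFP KD and from -1.47 to -0.52 in Chd4 KD.

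The study concerns factors that write, read or oxidize CpG methylation, so the bases before the start sites of Nr0b1, Tfcp2l1 and Klf4 are shown here. These were the members with an unadjusted p under 0.05 between Chd4 KD and Mbd3 KD. The sequences are the 250 bases upstream of the annotated start in RefSeq, build GRCm38.p6, and capitals mark each CpG.
Nr0b1: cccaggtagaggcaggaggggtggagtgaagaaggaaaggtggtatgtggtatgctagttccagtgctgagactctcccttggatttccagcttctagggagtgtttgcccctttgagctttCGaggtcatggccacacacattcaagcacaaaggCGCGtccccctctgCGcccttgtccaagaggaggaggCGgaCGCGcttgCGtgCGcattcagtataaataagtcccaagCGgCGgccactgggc
Tfcp2l1: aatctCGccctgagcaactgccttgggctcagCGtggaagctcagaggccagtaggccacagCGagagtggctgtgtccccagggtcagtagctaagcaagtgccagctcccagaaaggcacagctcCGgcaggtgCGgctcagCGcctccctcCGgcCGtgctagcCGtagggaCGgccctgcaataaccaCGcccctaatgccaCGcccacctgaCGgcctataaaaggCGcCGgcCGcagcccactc
Klf4: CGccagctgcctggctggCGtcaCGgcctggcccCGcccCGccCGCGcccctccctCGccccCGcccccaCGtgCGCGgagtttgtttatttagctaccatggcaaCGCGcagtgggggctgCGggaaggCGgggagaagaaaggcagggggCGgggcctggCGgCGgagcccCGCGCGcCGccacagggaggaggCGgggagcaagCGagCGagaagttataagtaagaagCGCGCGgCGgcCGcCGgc
The Nr0b1 stretch lies at chrX:86191525-86191774 on the plus strand of chromosome X and holds 11 CpGs, more than 64.4% of 32851 RefSeq promoter windows. The Tfcp2l1 stretch, at chr1:118627695-118627944 on the plus strand, holds 16 CpGs, more than 74.6% of windows. Klf4, at chr4:55532476-55532725 on the minus strand, holds 32, more than 95.4%. The median over all windows was 6. Windows were found for 7 of the 10 members, 9 windows in all, and Klf5, Tbx3 and Prdm14 had none in the table used. Klf2 held 29 CpGs, Zfp42 held 9, the windows of Esrrb held 6 and 3, and those of Nr5a2 held 6 and 2. Over the full 300-base windows, searched on both strands, the KLF motif CCCCACCC was found in 3 of the 9 member windows, both of Esrrb and that of Zfp42, against 10.0% of all windows. The STAT motif TTCNNNGAA was found in 1, the upstream window of Esrrb, against 8.3% of all windows. The nuclear receptor motif AAGGTCA, of the type Esrrb and Nr5a2 are known to bind, was in 0 of the 9, against 4.7% of all windows.

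Signals are log2 values of the processed intensity divided by the 75th percentile of the array, so that 0 stands for the 75th percentile. Every probe of the 10 members was well above background on all 12 arrays. Esrrb (probe A_55_P1954302), an orphan nuclear receptor, and Zfp42 (Rex1, probe A_51_P413376), a zinc finger protein used as a naive marker, were saturated on 11 of 12 arrays. Their saturated signals ran from 4.52 to 5.24 for Esrrb and from 4.50 to 5.23 for Zfp42, and differed from each other by at most 0.05 on any of those arrays, which is the ceiling divided by each array's own percentile. On the array without saturation, Chd4 KD replicate 1, the log2 signals were 4.70 for Esrrb and 4.81 for Zfp42. No fold change is given for these genes. The other 8 members could be compared, with Klf2 saturated on Mbd3 KD replicate 1 alone.

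**Figure D1:**
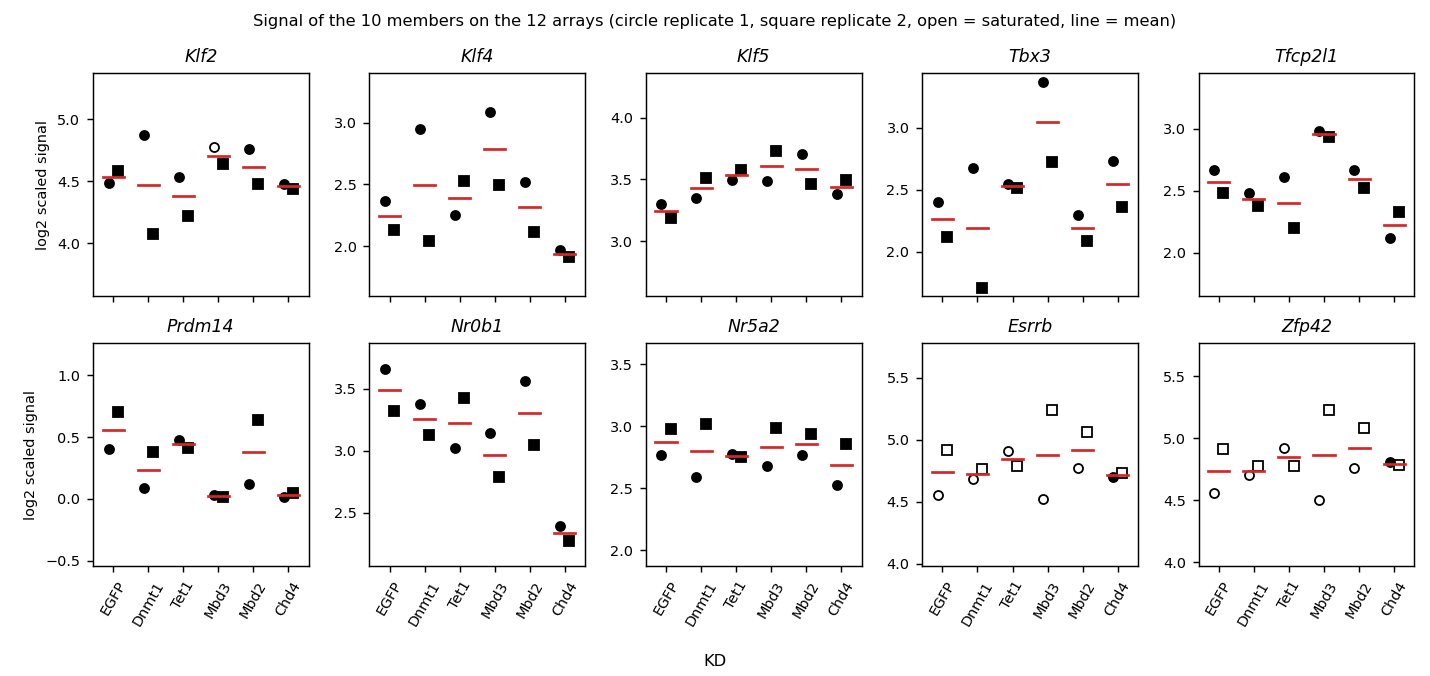
Log2 scaled signal (vertical axis, a span of 1.8 in every panel) of the brightest probe of each of the 10 members on the 12 arrays, by KD (horizontal axis). Circles are replicate 1, squares replicate 2, open symbols saturated spots and red lines group means. Both Chd4 KD arrays of Nr0b1, at 2.39 and 2.27, lie under all others, both EGFP KD arrays of Klf5 lie under all others, and Esrrb and Zfp42 are saturated on 11 arrays.

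With limma and Benjamini-Hochberg adjustment over all genes, 0 of the 8 members had an adjusted p under 0.05 in any of the 7 comparisons. In Chd4 KD, 3.19% of all genes were called against EGFP KD, and 2 of the 8 members, Nr0b1 and Prdm14, had an unadjusted p under 0.05, as had 12.8% of all genes. In Mbd3 KD, 0.764% of all genes were called. There 3 members (Klf5, Tfcp2l1 and Prdm14) had an unadjusted p under 0.05, as had 9.66% of all genes. Without both arrays that go against their labels, limma called 0 genes in Mbd3 KD. In each of the other KDs limma called 0 genes (0.0%). The targeted mRNAs themselves were not called there. Dnmt1 was at -1.99 in Dnmt1 KD (standard error 0.39, limma adjusted p = 0.37), and Tet1 at -0.92 (standard error 0.65) in Tet1 KD, as labelled. The absence of calls in these KDs therefore does not show that no gene changed. For Mbd2 KD 2.08% of genes had an unadjusted p under 0.05, for Tet1 KD 2.85% and for Dnmt1 KD 4.73%, and the members at that level were 1 of 8 in the first, Klf5, and 0 of 8 in the others. Between Chd4 KD and Mbd3 KD, 1.45% of genes were called, and 3 members (Klf4, Tfcp2l1 and Nr0b1) had an unadjusted p under 0.05, against 10.1% of all genes. Between Mbd3 KD and Mbd2 KD, 0.523% of genes were called, and 2 members (Tbx3 and Tfcp2l1) had an unadjusted p under 0.05, against 6.88% of all genes. The KDs share the same 2 EGFP KD arrays, so their differences from the control are not independent of each other.

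The member farthest from the control was Nr0b1 in Chd4 KD. Nr0b1 (Dax1, probe A_51_P106455) encodes an orphan nuclear receptor without a DNA-binding zinc finger domain that acts with Oct4 and Nr5a2. Its log2 signals in EGFP KD were 3.66 and 3.33, and in Chd4 KD they were 2.39 and 2.27. In Mbd3 KD they were 3.14 and 2.79, in Dnmt1 KD 3.38 and 3.13, on the arrays labelled Tet1 KD 3.03 and 3.42, and on those labelled Mbd2 KD 3.57 and 3.05. Both Chd4 KD arrays lay below the other 10 arrays, a pattern that 2 of the 8 members (Nr0b1 and Klf4) and 4.85% of all genes showed. The mean was 2.33 ± 0.08 (SD, n = 2) in Chd4 KD and 3.50 ± 0.24 (SD, n = 2) in EGFP KD, a log2 fold change of -1.16 (standard error 0.24, 95% interval -1.72 to -0.60, limma adjusted p = 0.0543). This is 0.447 of the control level, just outside the threshold. With slide as a block the log2 fold change was -0.97 with an adjusted p of 0.0414, and with normexp background correction it was -0.89 with an adjusted p of 0.0255, so both settings called it. On slide 2, which held both kinds of array, Chd4 KD replicate 1 differed from EGFP KD replicate 2 by -0.93, and on slide 3 Chd4 KD replicate 2 differed by -0.85 from Dnmt1 KD, by -0.77 from Mbd2 KD and by -0.51 from Mbd3 KD. In Mbd3 KD the log2 fold change over EGFP KD was -0.53 (standard error 0.24, adjusted p = 0.566), with both arrays below both EGFP KD arrays. Chd4 KD differed from Mbd3 KD by -0.63 (95% interval -1.20 to -0.07, limma adjusted p = 0.402).

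Nr5a2 (Lrh1, probe A_51_P514449), a nuclear receptor that can drive Oct4 expression, overlapped between all groups and the control. Its log2 signals were 2.77 and 2.98 in EGFP KD, 2.68 and 2.99 in Mbd3 KD, and 2.53 and 2.85 in Chd4 KD. The log2 fold changes were -0.04 in Mbd3 KD (95% interval -0.49 to 0.41) and -0.18 in Chd4 KD (95% interval -0.63 to 0.27). A second Nr5a2 probe (A_55_P2142908) differed by -0.07 in Mbd3 KD and by -0.01 in Chd4 KD. These intervals leave room for a difference of up to 0.63 in size in Chd4 KD.

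Klf4 and Tfcp2l1 are both known targets of LIF and Stat3, and each had signals above the control in Mbd3 KD and below it in Chd4 KD, though with slide as a block Klf4 in Chd4 KD was level with the control (-0.01). Tfcp2l1 (probe A_52_P175376), a grainyhead-like factor that helps hold the naive state, had log2 signals of 2.66 and 2.48 in EGFP KD, 2.98 and 2.93 in Mbd3 KD, and 2.12 and 2.32 in Chd4 KD. Both Mbd3 KD arrays lay above the other 10 arrays, which was so for 1 of the 8 members and for 1.41% of all genes, and both Chd4 KD arrays lay below both EGFP KD arrays. Over EGFP KD this gave log2 fold changes of 0.39 in Mbd3 KD (95% interval 0.02 to 0.75, adjusted p = 0.469) and -0.35 in Chd4 KD (95% interval -0.71 to 0.01, adjusted p = 0.42). Compared directly, Chd4 KD differed from Mbd3 KD by -0.73 (95% interval -1.10 to -0.37, limma adjusted p = 0.0893), or 0.601 of the Mbd3 KD level. A second probe (A_55_P2413458) gave differences of 0.21 in Mbd3 KD, -0.49 in Chd4 KD and -0.70 between Chd4 KD and Mbd3 KD. When the probes of a gene were averaged, the last difference was -0.72 with an adjusted p of 0.0498, which is a call. On slide 3 the array of Chd4 KD differed from that of Mbd3 KD by -0.61.

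Klf4 (probe A_55_P2122020), a zinc finger activator and reprogramming factor, had log2 signals of 2.36 and 2.13 in EGFP KD, 3.08 and 2.49 in Mbd3 KD, and 1.97 and 1.91 in Chd4 KD. It was higher than both control arrays on both Mbd3 KD arrays and lower on both Chd4 KD arrays. The largest spread between replicates was in Dnmt1 KD, with 2.95 and 2.04. In Dnmt1 KD, in Mbd3 KD and in Mbd2 KD, as labelled, the array on slide 1 was higher than that on slide 3. The log2 fold change was 0.54 in Mbd3 KD (95% interval -0.24 to 1.32, adjusted p = 0.749) and -0.30 in Chd4 KD (95% interval -1.08 to 0.48, adjusted p = 0.865). Leaving out single arrays moved the first from 0.25, without Mbd3 KD replicate 1, to 0.84. Chd4 KD differed from Mbd3 KD by -0.85 (95% interval -1.63 to -0.07, limma adjusted p = 0.431), and by -0.58 between the arrays of slide 3. By its brightest probe, neither Klf4 nor Tfcp2l1 passed the adjusted threshold in any of these comparisons.

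Tbx3 (probe A_55_P1969002), a T-box factor that can replace LIF in part when it is overexpressed, had the highest mean of its 6 groups in Mbd3 KD. Its log2 signals were 2.40 and 2.12 in EGFP KD and 3.37 and 2.72 in Mbd3 KD, so both Mbd3 KD arrays were above both control arrays. In Chd4 KD they were 2.73 and 2.36, which overlapped with EGFP KD, and in Dnmt1 KD they were 2.68 and 1.71, on either side of it. The log2 fold change in Mbd3 KD was 0.78 (standard error 0.35, 95% interval -0.03 to 1.60, limma adjusted p = 0.547), or 1.72-fold. Leaving out single arrays moved it from 0.46, without Mbd3 KD replicate 1, to 1.11, with adjusted p-values from 0.33 to 0.922. With normexp background correction it was 0.87 with an adjusted p of 0.0155, a call. On slide 1 Mbd3 KD replicate 1 was 0.97 above EGFP KD replicate 1. Between Mbd3 KD and Mbd2 KD, as labelled, it differed by 0.86 (95% interval 0.04 to 1.67, limma adjusted p = 0.67), by 0.96 without both arrays that go against their labels, by 1.07 between the arrays of slide 1 and by 0.64 between those of slide 3.

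Klf5 (probe A_51_P507290), a Klf factor needed for the inner cell mass and for ES cell self-renewal, was lower in EGFP KD than in any KD. The EGFP KD signals were 3.30 and 3.19, and the 10 KD arrays ran from 3.35 in Dnmt1 KD replicate 1 to 3.73 in Mbd3 KD replicate 2. This pattern, with both control arrays below the other 10 arrays, held for 1 of the 8 members and 0.814% of all genes, and it rests on the 2 control arrays alone. The log2 fold changes were 0.36 in Mbd3 KD (95% interval 0.06 to 0.66, adjusted p = 0.389), 0.34 in Mbd2 KD, 0.29 in Tet1 KD, 0.20 in Chd4 KD and 0.19 in Dnmt1 KD. Without both arrays that go against their labels the values were 0.22 in Mbd2 KD and 0.33 in Tet1 KD.

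Klf2 (probe A_51_P144264), the Klf factor that responds most to inhibition of Mek, sat close to the ceiling. Its log2 signals were 4.49 and 4.59 in EGFP KD, 4.48 and 4.44 in Chd4 KD, and 4.78 and 4.64 in Mbd3 KD, where the first was saturated and is a lower bound. The log2 fold change in Chd4 KD was -0.08 (95% interval -0.68 to 0.52), and it had the opposite sign with quantile normalization, normexp and slide as a block. The widest spread was again in Dnmt1 KD, with 4.87 and 4.07. As for Klf4, the array on slide 1 was higher than that on slide 3 in Dnmt1 KD, Mbd3 KD and Mbd2 KD, as labelled.

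Prdm14 (probe A_55_P1977782), a PR domain protein that represses Fgf signalling and the de novo DNA methyltransferases, had log2 signals between 0.01 and 0.70. The EGFP KD signals were 0.40 and 0.70, those of Mbd3 KD 0.03 and 0.01 and those of Chd4 KD 0.01 and 0.05, so both KDs lay below both control arrays. The array labelled Mbd2 KD replicate 1 was at 0.12 and Dnmt1 KD replicate 1 at 0.09, near the Mbd3 KD and Chd4 KD arrays. The log2 fold changes were -0.53 in Mbd3 KD (95% interval -0.98 to -0.08, adjusted p = 0.393) and -0.52 in Chd4 KD (95% interval -0.97 to -0.08, adjusted p = 0.278). Mbd3 KD and Chd4 KD differed by 0.01 (95% interval -0.44 to 0.45). On slide 1 Mbd3 KD differed from EGFP KD by -0.37, and on slide 2 Chd4 KD differed from EGFP KD by -0.69.

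**Figure D2:**
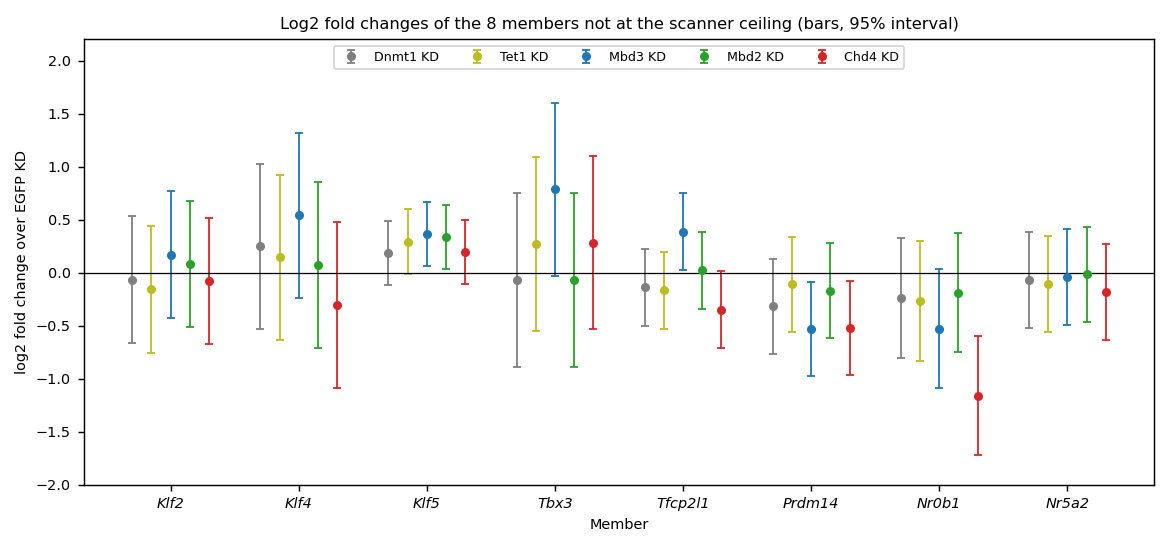
Log2 fold change over EGFP KD (vertical axis) of the 8 members that were not at the scanner ceiling (horizontal axis), 1 point for each of 5 KDs, with 95% intervals from the fit over 12 arrays. The interval of Nr0b1 in Chd4 KD runs from -1.72 to -0.60, and no point passed the adjusted threshold.

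**Figure D3:**
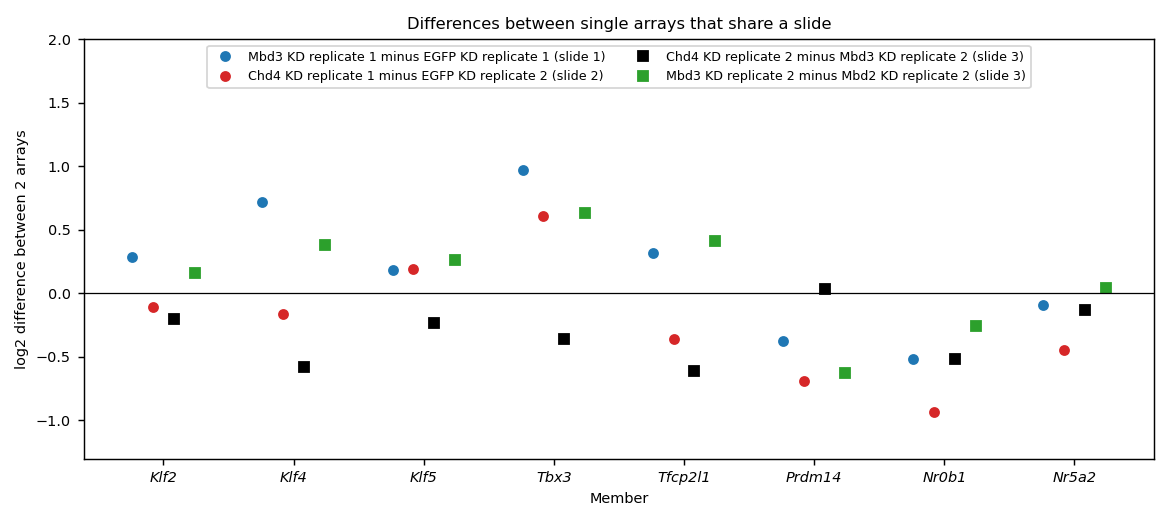
Difference in log2 signal (vertical axis) between pairs of single arrays on the same slide, for the 8 members (horizontal axis), with no error because each point is 1 array minus 1 array. Nr0b1 is at -0.93 for Chd4 KD minus EGFP KD on slide 2, and Tbx3 is at 0.97 for Mbd3 KD minus EGFP KD on slide 1.

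Counted over the 8 members, both Mbd3 KD arrays were above both EGFP KD arrays for 5 (Klf2, Klf4, Klf5, Tbx3 and Tfcp2l1), where 13.1% of all genes were so placed, and below for 2 (Prdm14 and Nr0b1), against 17.0%. In Chd4 KD the split was the other way, with 1 member above (Klf5, against 19.2% of genes) and 5 below (Klf2, Klf4, Tfcp2l1, Prdm14 and Nr0b1, against 19.0%). With slide as a block, however, Klf2 was at 0.09 and Klf4 at -0.01 in Chd4 KD. The Mbd3 KD arrays lay on slides 1 and 3 and those of Chd4 KD on slides 2 and 3. The part of slide in this split was not tested. Both Chd4 KD arrays were below both Mbd3 KD arrays for 4 members (Klf2, Klf4, Tfcp2l1 and Nr0b1, against 14.1% of genes) and above for 0 (against 18.1%). The median log2 fold change of the 8 members was 0.27 in Mbd3 KD, where that of all genes was -0.03, and -0.24 in Chd4 KD, where that of all genes was 0.00. The median difference between Chd4 KD and Mbd3 KD was -0.38 over the members and 0.06 over all genes. These are descriptions of a short list whose genes are not independent, and they carry no test.

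The largest differences of the members from the control were smaller in the other KDs than in Mbd3 KD or Chd4 KD. This did not hold member by member. Klf5 was farther from the control in Mbd2 KD (0.34) and Tet1 KD (0.29), as labelled, than in Chd4 KD (0.20). The Dnmt1 KD arrays of Klf2, Klf4, Tbx3 and Nr5a2 lay on opposite sides of the EGFP KD mean, so their small fold changes average opposite differences. In Dnmt1 KD the log2 fold changes ran from -0.32 (Prdm14) to 0.25 (Klf4), with 1 member above on both arrays (Klf5, against 10.7% of genes) and 1 below (Prdm14, against 10.6%). In Tet1 KD, as labelled, they ran from -0.27 (Nr0b1) to 0.29 (Klf5), with 2 above (Klf5 and Tbx3, against 23.3%) and 0 below (against 12%). In Mbd2 KD, as labelled, they ran from -0.19 (Nr0b1) to 0.34 (Klf5), with 1 above (Klf5, against 10.5%) and 0 below (against 12.5%). Nr0b1 stood at -0.07 in Tet1 KD and -0.45 in Mbd2 KD once both arrays that go against their labels were left out. Without those arrays the members ran from -0.37 (Tfcp2l1) to 0.33 (Klf5) in Tet1 KD, with a median of -0.10 where that of all genes was 0.10, and from -0.45 (Nr0b1) to 0.22 (Klf5) in Mbd2 KD, with a median of -0.06 where that of all genes was 0.00. As labelled, the medians of the 8 members were 0.00 in Mbd2 KD, -0.11 in Tet1 KD and -0.07 in Dnmt1 KD, where those of all genes were 0.00, 0.09 and -0.01.

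The rest of the network was read from lists of other pluripotency genes, of LIF and Wnt input and of primed genes, which mark the later epiblast. Of 20 other pluripotency genes, 3 that were saturated on at least 11 arrays were left out. Of the other 17, which include Utf1, saturated on 7 arrays, 2 fell and 0 rose in Chd4 KD (3.19% of all genes were called there), and limma called 0 in Mbd3 KD, where 3 had an unadjusted p under 0.05. Gbx2, a homeobox gene downstream of LIF, had log2 signals of 1.48 and 1.15 in EGFP KD, -0.09 and -0.38 in Mbd3 KD, and -1.34 and -1.36 in Chd4 KD. The groups did not overlap, and the log2 fold change in Chd4 KD was -2.66 (standard error 0.25, limma adjusted p = 0.00322), while in Mbd3 KD it was -1.55 with an adjusted p of 0.0548. Gdf3, a Tgf-beta family ligand, fell in Chd4 KD from 4.02 and 3.70 to 2.57 and 2.65, a log2 fold change of -1.25 (standard error 0.18, adjusted p = 0.0144). The Gbx2 call was kept without any single array, with adjusted p-values from 0.00307 to 0.0322, and that of Gdf3 was lost without EGFP KD replicate 1 or either Chd4 KD array, with adjusted p-values up to 0.0937.

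Of 12 genes of LIF and Wnt input, 1 fell and 0 rose in Chd4 KD and limma called 0 in Mbd3 KD, where 1 had an unadjusted p under 0.05. The gene that fell was Bcl3, a known LIF target that encodes an IkappaB family protein, with 2.85 and 2.61 in EGFP KD and 1.83 and 2.07 in Chd4 KD (log2 fold change -0.78, standard error 0.16, adjusted p = 0.0479). That call was lost when any 1 of the 12 arrays was left out, with adjusted p-values from 0.0575 to 0.246. Of 16 tested primed epiblast genes, among them Fgf5 and T at the floor of -4.86 in EGFP KD, 2 rose in Chd4 KD, where 3.19% of all genes were called. In Mbd3 KD limma called 0 of the 16. There 9 of the 16 had an unadjusted p under 0.05, 4 of them higher and 5 lower, against 9.66% of all genes, and the median log2 fold change of the list was 0.01. Otx2, a homeobox factor of the exit from the naive state, had 1.14 and 0.94 in EGFP KD, 1.76 and 2.07 in Mbd3 KD, and 2.74 and 3.01 in Chd4 KD (log2 fold change 1.84, standard error 0.26, adjusted p = 0.0132). For Krt18, an epithelial keratin that is also on the list of trophectoderm markers, the change was 1.18 on that scale (standard error 0.18, adjusted p = 0.0197). Both calls were lost without either EGFP KD array or either Chd4 KD array, with adjusted p-values up to 0.103 for Otx2 and 0.136 for Krt18.

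**Figure D4:**
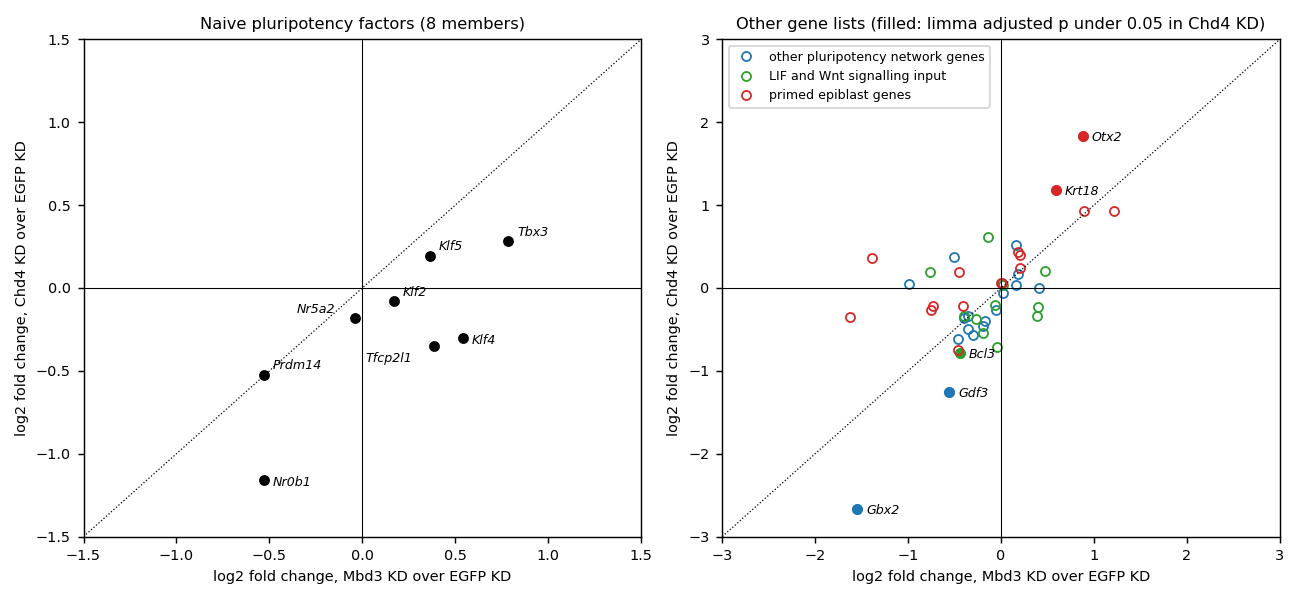
Log2 fold change in Chd4 KD (vertical axis) against that in Mbd3 KD (horizontal axis), both over the same EGFP KD arrays. The left panel shows the 8 members, and the right panel, on a wider scale, 3 lists of related genes. The dotted line marks equal values. Klf4 and Tfcp2l1 lie below the line, Nr0b1 is the lowest member at -1.16 in Chd4 KD, and Gbx2 at -2.66 and Otx2 at 1.84 lie beyond any member.

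Among relatives of the members by sequence, limma called 0 of 14 other Klf genes in Mbd3 KD or Chd4 KD, with 1 in each of these KDs at an unadjusted p under 0.05. Klf9 and Klf10, the brightest of them, had log2 fold changes in Chd4 KD of -0.09 and 0.22. Of 19 tested relatives of Esrrb, Tbx3, Tfcp2l1, Prdm14 and Nr5a2, 1 was called in Chd4 KD, Tbx4. It was at the floor of -4.86 in EGFP KD and at -4.07 and -4.16 in Chd4 KD. Its log2 fold change of 0.75 is therefore a lower bound. At the floor its EGFP KD and Mbd3 KD arrays had an SD of 0.0, which understates the spread behind this call. Trophectoderm markers gave 2 rises among 8 in Chd4 KD, Krt18 and Tfap2c (log2 fold change 1.05, adjusted p = 0.00664), the second of which was lost without Chd4 KD replicate 2 (adjusted p = 0.0544). In Mbd3 KD Tfap2c rose by 0.80 (adjusted p = 0.0441) and Gata3 fell by at least 0.86, to the floor (adjusted p = 0.0346), and 12 and 10 of the single-array omissions ended these calls, with adjusted p-values up to 0.203 and 0.156. With slide as a block both were also lost (adjusted p = 0.0765 and 0.0957). Both Mbd3 KD arrays of Gata3 were at the floor, so their SD was 0.0. The same gene was also at -0.86 in Dnmt1 KD and in Tet1 KD, as labelled. In Mbd2 KD, as labelled, it was at -0.72, and it was not called in any of these KDs. Fibroblast markers gave 2 rises among 6 in Chd4 KD, with a list median of -0.26, and the 4 not called had log2 fold changes of -1.07 (Lum), -0.74 (Col3a1), -0.51 (Dcn) and -0.02 (Col1a2). Col1a1, a fibrillar collagen, stood at -4.29 and -4.41 in EGFP KD and at -1.80 and -1.90 in Chd4 KD (log2 fold change 2.49, adjusted p = 0.00198), and Thy1, a surface protein that ES cells also carry, changed by 1.42 in Chd4 KD (adjusted p = 0.00204) and by 1.28 in Mbd3 KD (adjusted p = 0.0108). The Thy1 call in Mbd3 KD was lost without EGFP KD replicate 1 or either Mbd3 KD array. The Mbd3 KD calls of Thy1, Tfap2c and Gata3 were also lost without both arrays that go against their labels. limma called 0 of 8 primitive endoderm markers, where 2 had an unadjusted p under 0.05 in Mbd3 KD and 3 in Chd4 KD, and 0 of 7 tested two-cell-like markers, where 2 and 0 had one. Sox17 and Foxa2, the brightest of the first list, had log2 fold changes in Chd4 KD of 0.13 and -0.26. The primitive endoderm markers with an unadjusted p under 0.05 were all higher than in EGFP KD. The median of that list was 0.08 in Mbd3 KD and 0.31 in Chd4 KD, where those of all genes were -0.03 and 0.00. Over the tested two-cell-like markers the mean log2 signal was -1.40 and -1.11 in EGFP KD, -1.98 and -1.89 in Mbd3 KD, and -1.44 and -1.22 in Chd4 KD, so the Mbd3 KD arrays were the lower, and the list median in Mbd3 KD was -0.60. Zscan4f, a gene with close copies, was at -1.59 in Mbd3 KD (adjusted p = 0.301) and at -0.06 in Chd4 KD, and Zfp352 at 0.14 and -0.16. Whether these markers had a part in the values of the members was not tested, and in bulk RNA fewer cells of a type and less mRNA per cell cannot be told apart.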

How the data were processed

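Total RNA of 12 samples of E14 ES cells was read on one-colour Agilent 4X44K arrays, 2 for each of 6 KDs, and groups were taken from the sample titles. The authors quantified spots with Agilent Feature Extraction 10.7.1.1 and deposited each array's scanner output, whose processed signal is a background-corrected intensity with no scaling across arrays. A further table deposited by the authors gives log2 values for each KD array relative to EGFP KD, and these are ratios of log2 signals and so compressed. It was used as an alternative only.

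Of 43020 spots that are not controls, outlier spots were left out (92 to 306 per array). Intensities were divided by the 75th percentile of the array (1784.5 to 2451.6), set to at least 0.0344 and taken to log2. Spots were averaged to 39429 probes, of which 76.9% to 95.2% per array were well above background, and 2 arrays per group limit the precision. Probes had to pass the scanner's well-above-background mark on both arrays of any group, and each gene was read from its brightest probe. Accessions were named through RefSeq of GRCm38.p6, which matched 71.4% of spots. A linear model of 6 groups was fitted over 12 arrays with limma 3.58.1 in R 4.3.3, and calls needed a Benjamini-Hochberg adjusted p under 0.05 over 29844 genes. The limma steps were tested on simulated data. Figures and summaries used Python 3.11.15.

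The members, the gene lists and the comparisons were chosen with earlier results of these data known. All 10 members are named, the 5 targeted genes, and from each list up to 4 genes called in Chd4 KD or Mbd3 KD, by largest change, or the 2 brightest if none was called. Lum, Col3a1, Dcn and Col1a2 were named after their values were seen. The patterns over all 12 arrays were chosen after their values were seen. Alternatives were quantile normalization, normexp (offset 50), the deposited table, slide or replicate number as a block, the 4 arrays of a comparison alone, other filters on dim probes, the mean of a gene's probes, a threshold of 0.1, and arrays left out.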

Additional observations from a re-analysis of the deposited data

How the results depend on the processing

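The 2 arrays per group, and a scanner ceiling that left Esrrb and Zfp42 without a usable difference, limit these results. Of 730 member values under 23 alternatives, 694 kept their sign and their side of the threshold. Much of this agreement was fixed in advance, because no member was called in the main fit. A threshold of 0.1, or leaving out an array from outside a comparison, cannot change its log2 fold change. Without any single array, 0 members were called in every comparison. Nr0b1 in Chd4 KD was then between -1.33 and -0.99 (adjusted p 0.0524 to 0.27) and Tfcp2l1 between Chd4 KD and Mbd3 KD between -0.84 and -0.63. In Chd4 KD 1 member, Nr0b1, was called with normexp, with slide as a block, with the replicate number as a block (-1.16, adjusted p = 0.0417) and at a threshold of 0.1, and 0 without the arrays labelled Tet1 KD replicate 1 and Mbd2 KD replicate 1 (adjusted p = 0.0759). Between Chd4 KD and Mbd3 KD 1 member, Tfcp2l1, was called with the mean of probes and at 0.1. Normexp called 1 member, Tbx3, in Mbd3 KD and 1, also Tbx3, between Mbd3 KD and Mbd2 KD (0.75). The deposited table holds 6 of the members and 7425 tested genes, and tests group means against 0 with no control spread. It called 5 members in Mbd3 KD, 4 in Chd4 KD, 2 between Chd4 KD and Mbd3 KD and 1 between Mbd3 KD and Mbd2 KD, beside 3412, 4213, 1222 and 655 genes, and 30 genes in Mbd2 KD, 56 in Tet1 KD and 1066 in Dnmt1 KD.

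Signs changed for Klf2 in Chd4 KD with normexp (0.24), quantile normalization (0.12) and slide (0.09), for Nr5a2 with quantile normalization (0.041 in Mbd3 KD, 0.017 in Chd4 KD), and for Prdm14 between Chd4 KD and Mbd3 KD with normexp (-0.11), slide (-0.13) and the deposited table (-0.014). The cause was not tested. With single arrays left out, ranges that spanned 0 were -0.21 to 0.71 for Klf4 in Dnmt1 KD, -0.449 to 0.071 for Nr0b1 in Mbd2 KD, -0.20 to 0.11 for Nr5a2 in Mbd3 KD, -0.304 to 0.022 for Nr5a2 and -0.010 to 0.025 for Prdm14 between Chd4 KD and Mbd3 KD. For 24 further differences, up to 0.47 in size, 42 of 544 values changed sign and 0 were called.

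The main counts of called genes were 228 for Mbd3 KD and 953 for Chd4 KD, 434 between these and 156 between Mbd3 KD and Mbd2 KD. In Mbd3 KD they were 404 with normexp, 127 with quantile normalization, 56 with slide, 93 with probes above background on all arrays and 479 at 0.1. In Chd4 KD they were 1486 at 0.1. Between these KDs they were 225 with probes above background on all arrays and 715 at 0.1. Between Mbd3 KD and Mbd2 KD they were 297 with normexp, 102 with quantile normalization, 71 with probes above background on all arrays and 323 at 0.1. The share of rises among calls moved from 61.3% to 49.8% in Chd4 KD and from 71.7% to 50.8% between Chd4 KD and Mbd3 KD with normexp. With the 4 arrays of a comparison alone 0 genes were called in each. The next counts are given for Mbd3 KD, for Chd4 KD, between these, and between Mbd3 KD and Mbd2 KD, in that order. Without the arrays labelled Tet1 KD replicate 1 and Mbd2 KD replicate 1 they were 0, 509, 126 and 12, and 3 in Mbd2 KD. In Dnmt1 KD there were 3 with normexp, 7 without a filter on dim probes and 1 at 0.1, and in Tet1 KD 1 without that filter and 1 with the mean of probes. Without single arrays they ran from 28 to 123 in Mbd3 KD, 320 to 858 in Chd4 KD, 129 to 341 between these, 23 to 111 between Mbd3 KD and Mbd2 KD, and from 0 to 48 in Mbd2 KD, 0 to 32 in Tet1 KD and 0 to 39 in Dnmt1 KD. The lowest in Mbd3 KD and Chd4 KD came without EGFP KD replicate 1. The difference of replicate 1 minus replicate 2 correlated across genes between pairs of groups from -0.04 to 0.77, so the replicate number was not taken as a pairing. The highest value was between Dnmt1 KD and Mbd3 KD, each with replicate 1 on slide 1 and replicate 2 on slide 3. The main fit holds no slide term. The replicate number as a block gave 248 and 1289 genes in Mbd3 KD and Chd4 KD.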
